A study of Homo sapiens with 12 samples.

Results

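The genes described here are 10 textbook transcriptional targets of the tumour suppressor p53: TP53INP1, MDM2, ZMAT3, FAS, TNFRSF10B, FDXR, XPC, DDB2, RRM2B and PPM1D. They were taken by name, with earlier results of these data known. Every probe set that the platform annotation pairs with one of these symbols was included. Probe sets were found for 9 of the 10 genes, 32 in all out of the 54613 non-control probe sets of the array. MDM2 had 10 probe sets, ZMAT3 and FAS had 5 each, TNFRSF10B had 4, TP53INP1 had 3, PPM1D had 2, and XPC, DDB2 and RRM2B had 1 each. FDXR was not analysed here.

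The arrays hold RNA of INA-6, a multiple myeloma cell line of human origin that needs interleukin-6 to grow. The study compared cells given SB590885, an inhibitor of the Raf kinases, cells given PD325901, an inhibitor of the kinase MEK, and cells given only the solvent DMSO, with 4 arrays of each. Raf phosphorylates MEK, and MEK phosphorylates ERK, so the compounds block successive steps of 1 pathway. All groups grew with 10% serum and 2 ng/ml interleukin-6, and 100 ng of RNA was labelled for Affymetrix HG-U133 Plus 2.0 arrays. Only this cell line was used, and neither doses nor treatment times are stated in the labels, so it is unknown whether the compounds were matched in either. The design text calls the arrays of a group biological replicates. Each array carries a number from 1 to 4. A second label names arrays 1 and 2 of each group 1 and 2, and arrays 3 and 4 of each group 1R and 2R. The meaning of the R is not given, so it is unknown whether 1R and 2R repeat samples 1 and 2.

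p53 is a transcription factor that is stabilised when DNA is damaged or when growth and nutrient signals are disturbed. Its targets hold the cell cycle, repair DNA, remove damaged cells or shut p53 off again. TP53INP1 binds p53 and the kinases that modify it and also takes part in autophagy, and ZMAT3 is an RNA-binding protein that acts in splicing and mRNA stability. XPC and DDB2 find damaged bases for nucleotide excision repair, and RRM2B is a subunit of ribonucleotide reductase, which makes deoxynucleotides. FAS and TNFRSF10B are death receptors on the cell surface. MDM2 is the ubiquitin ligase that degrades p53, and PPM1D is a phosphatase that reverses its activating phosphorylation, so both close a feedback loop. FDXR passes electrons to mitochondrial enzymes.

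p53 binds DNA as a tetramer at a pair of half-sites. The promoters of DDB2 and MDM2 are printed to show, in each, 1 site of the kind through which the textbook links these genes to p53. The sequences are RefSeq windows on GRCh38.p14 of 300 bases each, in which base 251 is the transcript start. The DDB2 window is chr11:47214724-47215023, the MDM2 window is chr12:68808767-68809066, and both are on the plus strand. Capitals mark 1 pair of half-sites in each window, read against the p53 half-site consensus, which is its own reverse complement, so that 1 search covers both strands. Pairs with more than 1 mismatch in a half-site were not searched for and are not marked.
DDB2: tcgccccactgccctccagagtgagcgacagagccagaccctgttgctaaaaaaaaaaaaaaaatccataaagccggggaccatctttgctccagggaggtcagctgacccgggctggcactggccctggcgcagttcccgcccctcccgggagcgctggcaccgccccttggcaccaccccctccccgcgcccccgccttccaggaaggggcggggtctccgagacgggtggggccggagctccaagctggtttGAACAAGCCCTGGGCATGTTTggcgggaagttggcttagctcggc
MDM2: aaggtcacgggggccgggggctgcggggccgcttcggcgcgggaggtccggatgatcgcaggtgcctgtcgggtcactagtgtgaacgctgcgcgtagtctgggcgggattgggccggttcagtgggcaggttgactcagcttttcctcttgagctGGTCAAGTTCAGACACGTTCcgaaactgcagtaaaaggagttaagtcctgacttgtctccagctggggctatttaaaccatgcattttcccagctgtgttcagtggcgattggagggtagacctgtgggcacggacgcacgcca
In DDB2 both half-sites matched the consensus without a mismatch, with a spacer of 1 base, at bases 256 to 276. In MDM2 the half-sites were adjacent, with 1 mismatch each, at bases 157 to 176, in the window of the promoter inside the gene. A perfect pair with a spacer of at most 13 bases occurred in 10 of 35116 promoter windows (0.0285%), and adjacent half-sites with at most 1 mismatch each in 136 (0.387%). At least 1 perfect half-site occurred in 6.632% of windows, among them 1 window of FAS. Windows were at hand for 6 of the measured genes, and a match in these letters is a description, not a measurement of binding.

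The values are log2 expression from robust multi-array averaging (RMA), and array medians lay between 6.88 and 6.97. Over all genes, arrays of the same number moved together, so each difference was fitted both from group means and with the replicate number as a block. The interferon response genes stood apart on array 2 of PD325901 and array 2 of DMSO, with list medians of 11.1 and 11.4, against 7.04 to 8.79 on the other 10 arrays. All 8 plasma cell markers had means above the highest of 17 genes restricted to other tissues, against 0 of 6 T and NK cell markers, 0 of 5 monocyte markers, 1 of 6 of fibroblasts and stroma, 1 of 4 of endothelium and 1 of 2 of erythroid cells. ERK output genes fell under both compounds, 3 of 10 with SB590885 and 5 of 10 with PD325901 (limma, adjusted p under 0.05). DUSP6, a phosphatase induced by ERK, fell by 0.97 with SB590885 and fell by 2.64 with PD325901 on the log2 scale. The 3'-minus-5' signal of GAPDH, which depends on how intact the RNA is, averaged 0.440 ± 0.035 with SB590885, 0.426 ± 0.057 with PD325901 and 0.371 ± 0.033 with DMSO (log2, SD, n = 4). Its part in the differences between groups was not tested.

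In each comparison 1 of the 9 genes was called, by limma with Benjamini-Hochberg adjustment over 19775 genes. TP53INP1 rose with SB590885 and with PD325901 against DMSO, and TNFRSF10B was higher with SB590885 than with PD325901. For all genes, 1.59% were called higher and 1.69% lower with SB590885 against DMSO, 0.086% higher and 0.506% lower with PD325901 against DMSO, and 1.97% higher and 0.855% lower with SB590885 against PD325901. With the replicate block, 5 of the 9 genes rose with SB590885 (TP53INP1, DDB2, XPC, TNFRSF10B and ZMAT3), where 9.09% of all genes were called higher and 9.84% lower. With the block and PD325901, TP53INP1 and ZMAT3 rose and TNFRSF10B fell, where 1.96% of all genes were called higher and 6.18% lower. Against PD325901, the block called 4 of the 9 higher with SB590885 (TNFRSF10B, DDB2, XPC and RRM2B), where 12.4% of all genes were called higher and 5.73% lower. The plasma cell markers moved in the same comparisons: 3 of 8 fell with SB590885 against DMSO (SLAMF7 by 0.90, XBP1 by 0.62 and SDC1 by 0.55 on the log2 scale) and 4 of 8 (SLAMF7, XBP1, MZB1 and TNFRSF17) were lower with SB590885 than with PD325901, at list medians of -0.42 and -0.57 (limma, adjusted p under 0.05). With the block 4 and 5 of the 8 were lower. None passed with PD325901 against DMSO (median 0.16), where 3 had an unadjusted p under 0.05, and with the block 2 were higher and 1 lower. Their summed log2 level ran from 86.9 to 89.0 with SB590885, from 89.9 to 94.8 with PD325901 and from 89.4 to 93.3 with DMSO, and its part in the results for the p53 targets was not tested. The median difference over the 9 genes was 0.26 with SB590885 and -0.049 with PD325901 against DMSO, beside 0.0038 and -0.0029 over all genes. These are bulk RNA values, in which fewer cells that express a gene and less RNA per cell cannot be told apart.

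**Figure D1:**
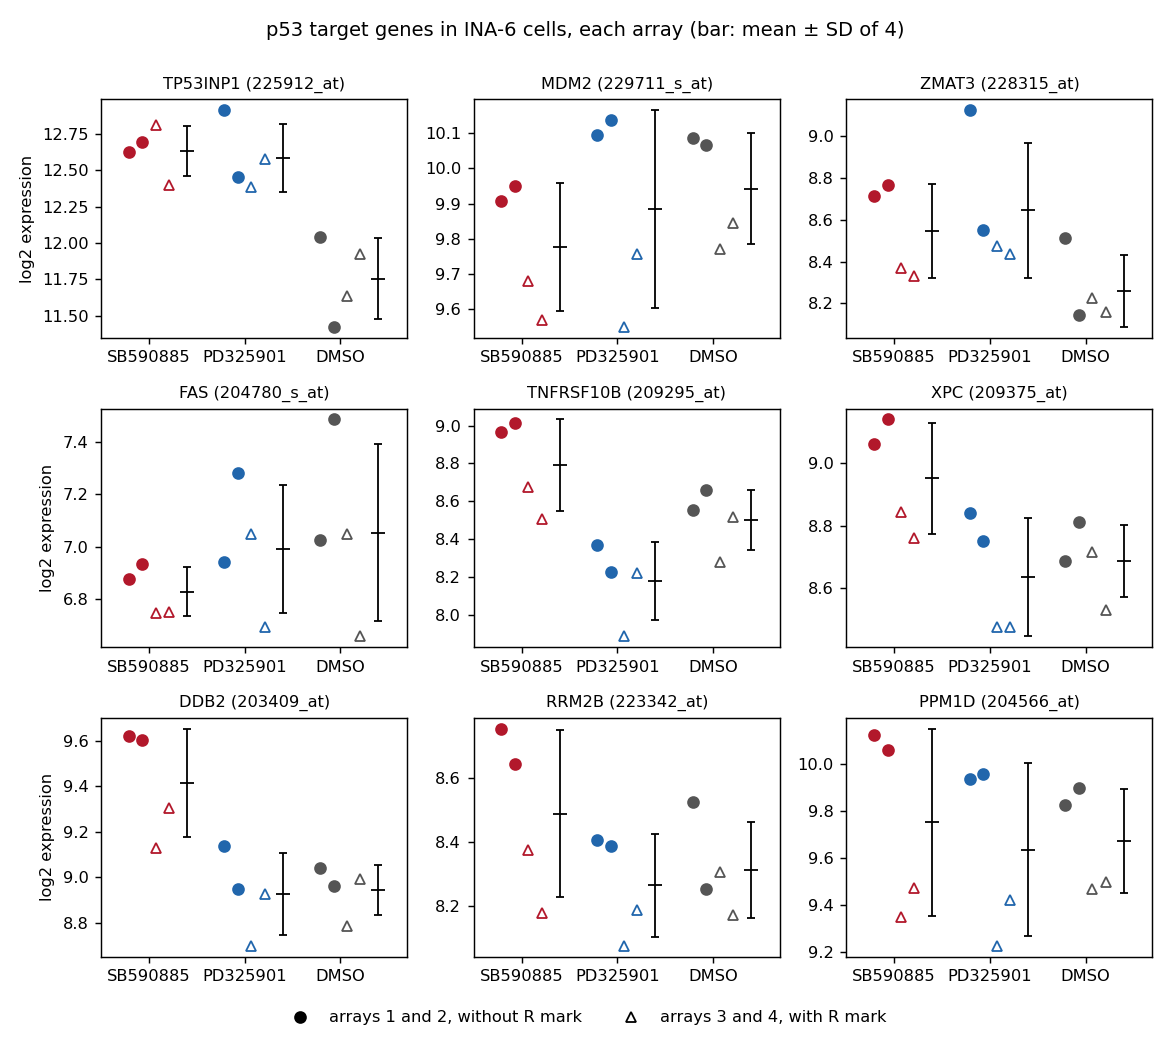
Log2 expression (vertical axis, a separate scale in each panel) of the 9 p53 target genes on each array, by group. Circles are arrays without the R mark, triangles arrays with it, and the bar is the mean ± SD of 4. The SB590885 and PD325901 arrays of TP53INP1 all lie above its DMSO arrays, the SB590885 arrays of DDB2 lie above its DMSO arrays, and the groups of MDM2, FAS and PPM1D overlap.

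TP53INP1 showed the largest difference from DMSO of the 9 genes under either compound. Its probe set 225912_at read 12.62, 12.69, 12.81 and 12.40 on the 4 SB590885 arrays. It read 12.92, 12.45, 12.38 and 12.58 with PD325901, and 12.04, 11.42, 11.63 and 11.92 with DMSO. Every treated array lay above every DMSO array. Non-overlapping higher groups were also seen in 4.45% of all genes with SB590885 and in 1.4% with PD325901. The difference from DMSO was 0.88 ± 0.15 (log2, SE), or 1.84-fold, with SB590885, at a limma adjusted p of 0.00961. With PD325901 it was 0.83 ± 0.15, or 1.78-fold, at a limma adjusted p of 0.0269. TP53INP1 was higher in 4 of 4 same-number pairs under each compound, by 0.48 to 1.27 with SB590885 and by 0.66 to 1.03 with PD325901. Between the compounds it differed by 0.048, with a 95% interval from -0.28 to 0.37, so the data do not separate them but allow a difference of that size.

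The DMSO array with the lowest TP53INP1 value was number 2, which also carried the high interferon genes. Without the arrays of number 2 the differences were 0.75 with SB590885 and 0.76 with PD325901, with limma adjusted p of 0.0952 and 0.144. With the block and without number 2 the limma adjusted p were 0.000261 and 0.000317. The PD325901 call was also lost without DMSO replicate 2 (adjusted p = 0.0758), DMSO replicate 3 (0.0962), PD325901 replicate 1 (0.0556) or PD325901 replicate 4 (0.0838), all in limma. It was lost too with median centring (adjusted p = 0.0568), in a fit of the 2 groups alone (0.0983) and on the arrays without the R mark (0.109), likewise in limma. With SB590885 the call held whichever single array was left out.

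The other TP53INP1 probe sets gave smaller differences. Probe set 244721_at read 7.90, 7.98, 8.16 and 8.02 with SB590885, 8.08, 7.79, 8.04 and 8.05 with PD325901, and 7.59, 7.53, 7.85 and 7.68 with DMSO. The SB590885 arrays lay above the DMSO arrays, while 1 PD325901 array fell among the DMSO values. The differences were 0.35 with SB590885 and 0.33 with PD325901, with limma adjusted p over 54613 probe sets of 0.0603 and 0.241, and of 0.00075 and 0.00347 with the block. Probe set 235602_at had a mean of 6.61 and differed from DMSO by 0.091 with SB590885 and by 0.086 with PD325901. Probe sets of a gene can report different transcripts and respond with different strength, and these levels were not set against each other.

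ZMAT3 was higher than DMSO with both compounds in every same-number pair, without passing the test from group means. Its probe set 228315_at read 8.72, 8.77, 8.37 and 8.33 with SB590885, 9.13, 8.55, 8.48 and 8.44 with PD325901, and 8.52, 8.14, 8.22 and 8.16 with DMSO. The highest DMSO array reached into both treated groups. The difference was 0.29 ± 0.16 with SB590885 and 0.39 ± 0.16 with PD325901 (log2, SE), with limma adjusted p of 0.512 and 0.615. With the block the limma adjusted p were 0.0232 and 0.00915. Without number 2 the blocked difference was 0.17 with SB590885 (adjusted p = 0.132) and 0.38 with PD325901 (adjusted p = 0.00347), both in limma. Without PD325901 replicate 1 the difference from group means with PD325901 was 0.23. All 5 ZMAT3 probe sets had positive differences from DMSO under both compounds, from 0.018 to 0.42 with SB590885 and from 0.15 to 0.39 with PD325901. With the block, 4 of the 5 rose with SB590885 and 2 of the 5 with PD325901.

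**Figure D2:**
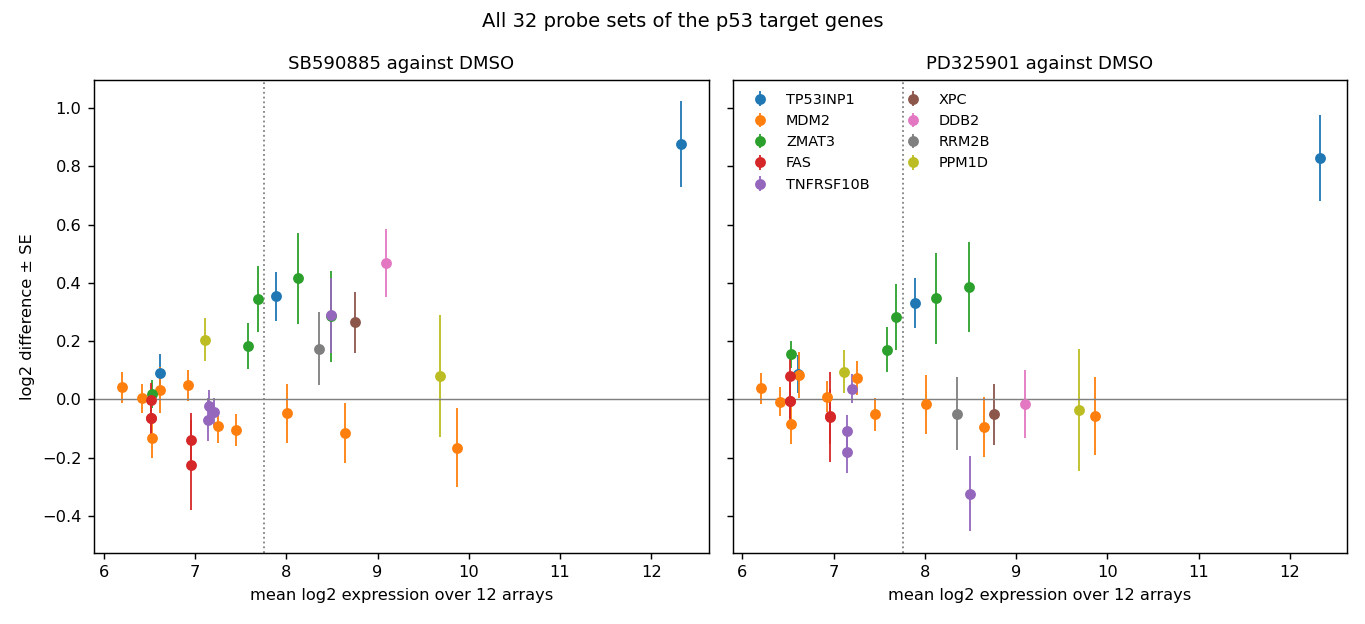
Log2 difference from DMSO (vertical axis, ± SE of the limma fit) of the 32 probe sets against their mean log2 expression over 12 arrays (horizontal axis), with SB590885 on the left and PD325901 on the right, coloured by gene. The dotted line is the highest mean of 17 genes restricted to other tissues, 7.75, and 12 of the 32 probe sets lie right of it. The TP53INP1 probe set at a mean of 12.3 lies highest in both panels.

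Across the 32 probe sets, 1 was called in each comparison of genes above, 225912_at of TP53INP1 against DMSO and 209295_at of TNFRSF10B between the compounds. The shares of all probe sets called higher were 1.01% with SB590885 and 0.0549% with PD325901 against DMSO, and 1.23% with SB590885 against PD325901. With the block, 10 of the 32 were higher with SB590885 against DMSO, beside 6.56% of all probe sets. With PD325901 against DMSO the block called 4 higher, beside 1.2%, and 1 lower, beside 3.61%. For SB590885 against PD325901 it called 4 higher, beside 8.83%, and 1 lower, beside 4.05%. The last was 238733_at of MDM2.

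DDB2 was higher with SB590885 than with either other group, while PD325901 was not separated from DMSO. Probe set 203409_at read 9.62, 9.60, 9.13 and 9.31 with SB590885, 9.14, 8.95, 8.70 and 8.93 with PD325901, and 9.04, 8.96, 8.79 and 8.99 with DMSO. The SB590885 arrays did not overlap the DMSO arrays, and they touched the PD325901 group only at its highest array. The difference was 0.47 ± 0.12 against DMSO, or 1.38-fold, at a limma adjusted p of 0.0542, and 0.49 ± 0.12 against PD325901, at 0.0516. Both passed with the block, at limma adjusted p of 6.44e-05 and 3.75e-05. Without the block, DDB2 passed against DMSO when SB590885 replicate 3 (adjusted p = 0.0257), PD325901 replicate 1 (0.0466) or PD325901 replicate 3 (0.0448) was left out, and against PD325901 without SB590885 replicate 3 (0.0235) or PD325901 replicate 1 (0.0401), all in limma. With PD325901 the difference from DMSO was -0.017, with a 95% interval from -0.27 to 0.24. DDB2 and TP53INP1 were the 2 of the 9 genes whose SB590885 and DMSO arrays did not overlap, beside 4.45% of all genes with non-overlapping higher groups.

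XPC followed the same order of groups at a smaller size. Its probe set 209375_at read 9.06, 9.14, 8.84 and 8.76 with SB590885, 8.84, 8.75, 8.48 and 8.48 with PD325901, and 8.69, 8.81, 8.72 and 8.53 with DMSO. The SB590885 values overlapped those of both other groups, and numbers 3 and 4 were the lower within it. XPC was higher with SB590885 in 4 of 4 pairs against DMSO and in 4 of 4 against PD325901. The differences of 0.26 and 0.32 (log2, SE 0.11) had limma adjusted p of 0.27 and 0.176, and of 0.00349 and 0.000984 with the block. With PD325901 XPC differed from DMSO by -0.051, with a 95% interval from -0.28 to 0.18.

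XPC and DDB2 act with other proteins of nucleotide excision repair. None of the 14 measured partners passed in limma against DMSO under either compound, and the medians were -0.0075 with SB590885, over a range from -0.33 to 0.32, and -0.062 with PD325901. At an unadjusted p under 0.05 there were 2 with SB590885 and 0 with PD325901. With the block, 2 of the 14 were higher and 2 lower with SB590885, beside 9.09% and 9.84% of all genes.

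RRM2B showed the smallest of the differences that passed with the block. Its probe set 223342_at read 8.75, 8.64, 8.37 and 8.18 with SB590885, 8.41, 8.39, 8.08 and 8.19 with PD325901, and 8.52, 8.25, 8.31 and 8.17 with DMSO. The 3 groups overlapped, and arrays 1 and 2 gave the highest SB590885 values. SB590885 differed from DMSO by 0.17 ± 0.13 and from PD325901 by 0.22 ± 0.13, with limma adjusted p of 0.699 and 0.544. With the block these were 0.0865 and 0.0291, and the second was 0.0522 without number 2. Without SB590885 replicate 1 the differences were 0.086 from DMSO and 0.13 from PD325901. Of 8 other genes of deoxynucleotide supply, TK1, a thymidine kinase of the salvage pathway, rose with SB590885 by 0.24 against DMSO (limma adjusted p = 0.0316). TK1 and TK2, the mitochondrial thymidine kinase, were higher with SB590885 than with PD325901 by 0.24 and 0.42 (limma adjusted p = 0.0307 for both).

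TNFRSF10B is the receptor DR5 for the ligand TRAIL. Its probe set of highest mean, 209295_at, lay on opposite sides of DMSO under the 2 compounds. This probe set read 8.96, 9.02, 8.67 and 8.51 with SB590885, 8.37, 8.23, 7.89 and 8.22 with PD325901, and 8.56, 8.66, 8.28 and 8.52 with DMSO. The SB590885 arrays all lay above the PD325901 arrays, with DMSO between and overlapping both. Non-overlapping higher groups occurred in 4.68% of all genes for SB590885 against PD325901. The difference between the compounds was 0.61 ± 0.13, or 1.53-fold, at a limma adjusted p of 0.0291, and it was positive in 4 of 4 pairs, from 0.28 to 0.79. Against DMSO, SB590885 differed by 0.29 ± 0.13 and PD325901 by -0.32 ± 0.13, with limma adjusted p of 0.363 and 0.61. With the block both passed, at 0.0122 and 0.014. SB590885 was higher than DMSO in 3 of 4 pairs, and PD325901 was lower in 4 of 4.

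The call between the compounds depended on single arrays, and the other probe sets of TNFRSF10B did not carry it. It was lost in limma without SB590885 replicate 1 (adjusted p = 0.0954), SB590885 replicate 2 (0.0955), PD325901 replicate 2 (0.0575), PD325901 replicate 3 (0.0716) or PD325901 replicate 4 (0.0634). It was lost too with median centring (adjusted p = 0.0748) and in a fit of the 2 groups alone (0.0834), likewise in limma. Without all arrays of number 2 the difference was 0.55, at an adjusted p of 0.173, and at 0.000231 with the block. The 3 other TNFRSF10B probe sets had means of 7.14 to 7.21 and differed between the compounds by -0.082 to 0.11, and the mean over the 4 probe sets differed by 0.18 (limma adjusted p = 0.0737). From DMSO these 3 differed by -0.070 to -0.024 with SB590885 and by -0.18 to 0.037 with PD325901.

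FAS, the receptor of FAS ligand, was not called in any comparison. Its probe set 204780_s_at read 6.88, 6.94, 6.75 and 6.75 with SB590885, 6.94, 7.28, 7.05 and 6.70 with PD325901, and 7.02, 7.49, 7.05 and 6.66 with DMSO. The groups overlapped, and the highest values of PD325901 and DMSO were those of the number 2 arrays with the high interferon genes. The part of these arrays in the FAS values was not tested, but without number 2 the SB590885 difference from DMSO was -0.12, against -0.23 with it. FAS was the 1 measured gene of the 9 whose mean, 6.96, was not above the highest of the 17 genes restricted to other tissues, so its readings may be near background. All 5 FAS probe sets had means between 6.52 and 6.96.

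Of the 11 measured partners of the death receptors, none passed in limma against DMSO with SB590885 or PD325901, and 1 and 2 had an unadjusted p under 0.05. The medians were -0.12 and -0.073. With the block, 1 was lower with SB590885 and 2 were lower with PD325901, beside 9.84% and 6.18% of all genes.

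MDM2 was not called with either compound. Its probe set 229711_s_at read 9.91, 9.95, 9.68 and 9.57 with SB590885, 10.10, 10.14, 9.55 and 9.76 with PD325901, and 10.09, 10.07, 9.77 and 9.84 with DMSO. Numbers 1 and 2 read higher than numbers 3 and 4 in every group, and this gap was larger than any gap between groups. SB590885 differed from DMSO by -0.17 ± 0.14, with a 95% interval from -0.46 to 0.13, and was lower in 4 of 4 pairs. The limma adjusted p was 0.769, and 0.0567 with the block. PD325901 differed from DMSO by -0.057, with a 95% interval from -0.36 to 0.24. The differences of the 10 MDM2 probe sets from DMSO ran from -0.17 to 0.048 with SB590885 and from -0.095 to 0.083 with PD325901.

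PPM1D likewise varied more between numbers than between groups. Its probe set 204566_at read 10.13, 10.06, 9.35 and 9.47 with SB590885, 9.94, 9.96, 9.23 and 9.42 with PD325901, and 9.83, 9.90, 9.47 and 9.50 with DMSO. The groups overlapped fully, and the arrays with the R mark were the lower pair in each. SB590885 differed from DMSO by 0.079 ± 0.21 and PD325901 by -0.037 ± 0.21. The second probe set, 230330_at, differed from DMSO by 0.20 with SB590885 (limma adjusted p = 0.236, and 0.011 with the block) and by 0.095 with PD325901.

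**Figure D3:**
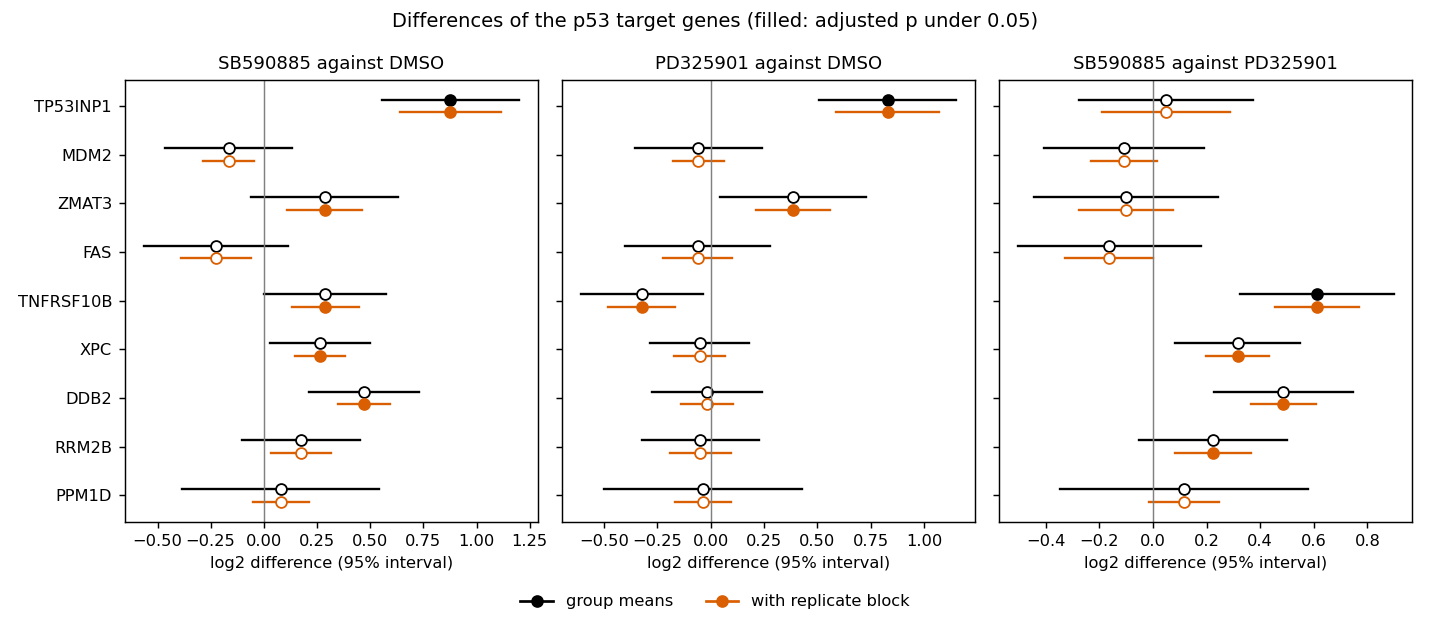
Log2 differences (horizontal axis, with 95% intervals) of the 9 genes in the 3 comparisons, from group means in black and with the replicate block in orange, filled where the adjusted p is under 0.05. From group means, TP53INP1 is filled in both comparisons with DMSO and TNFRSF10B between the compounds. With the block, 5, 3 and 4 genes are filled.

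Set side by side, the compounds gave like differences from DMSO for TP53INP1 and ZMAT3, whose differences between compounds were 0.048 and -0.10. They gave unlike ones for TNFRSF10B, DDB2, XPC and RRM2B, which were higher with SB590885 by 0.22 to 0.61, although only TNFRSF10B passed from group means. The comparisons with DMSO share the DMSO arrays, and no overlap between them was tested. For ZMAT3 the 95% interval between the compounds ran from -0.44 to 0.24, for MDM2 from -0.41 to 0.19, for FAS from -0.50 to 0.18 and for PPM1D from -0.35 to 0.58. These intervals do not show that the compounds act alike on these genes.

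Across the 12 arrays, TNFRSF10B, XPC, DDB2 and RRM2B varied together, with Pearson correlations of 0.75 to 0.86 between any pair of them. TP53INP1 and ZMAT3 correlated at 0.74. After the mean of each number was subtracted these were 0.78 to 0.95 and 0.86. PPM1D correlated with TNFRSF10B, XPC, DDB2 and RRM2B at 0.61 to 0.80, and at 0.61 to 0.76 after subtraction. With MDM2 it correlated at 0.82, and at -0.13 after subtraction. FAS correlated with the genes other than MDM2 at -0.49 to 0.41, and at -0.78 to -0.47 after subtraction. MDM2 correlated with the genes other than FAS and PPM1D at -0.11 to 0.52, and at -0.64 to -0.26 after subtraction. FAS and MDM2 correlated with each other at 0.54, and at 0.22 after subtraction. The 12 points share treatments and numbers, so the correlations only describe the order of the arrays. Over the 12 arrays and 12504 genes compared, the genes with the pattern most like that of TP53INP1 were LITATS1 (Pearson r = 0.94), DAPK1 (0.90), ESR1 (0.90), FZD2 (0.87) and PLAAT3 (0.87). After number means were subtracted they were ZNF771 (0.97), MIR550A3HG (0.97), RAB40B (0.97), GNB3 (0.96) and DNAJB9 (0.96). For MDM2 the most alike were ZFAND1 (0.99), PTP4A2 (0.98), ERAP1 (0.98), TRMT11 (0.97) and HSD17B11 (0.97), and after subtraction SDE2 (0.98), ZFAND1 (0.98), MDC1 (0.97), C1orf21 (0.96) and ROM1 (0.96).

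**Figure D4:**
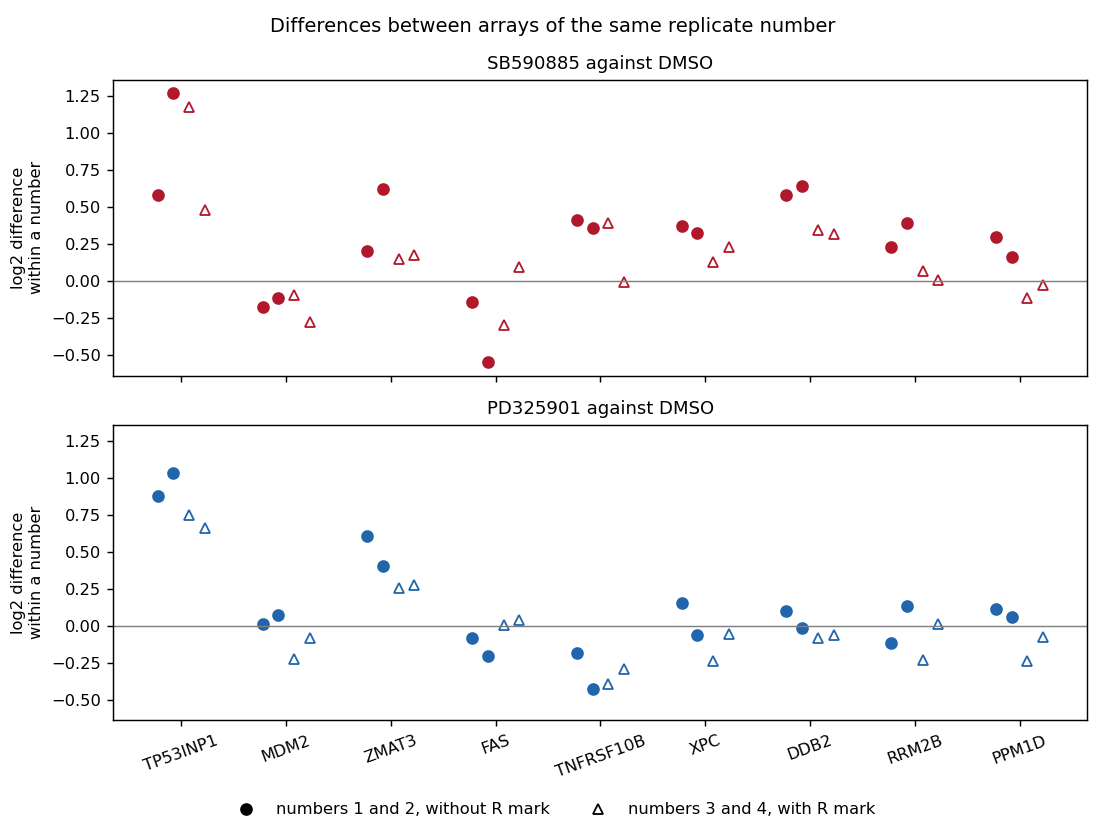
Log2 difference from DMSO (vertical axis) between arrays of the same number for the 9 genes (horizontal axis), SB590885 above and PD325901 below, with circles for numbers 1 and 2 and triangles for numbers 3 and 4, which carry the R mark. All 8 TP53INP1 and all 8 ZMAT3 points lie above 0, and the SB590885 points of PPM1D lie above 0 without the mark and below 0 with it.

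The treatment differences were also compared between the arrays with and without the R mark. None of the 9 genes passed this interaction in limma for either compound, where 0.00506% of all genes were called for SB590885 and 0% for PD325901. At an unadjusted p under 0.05 there was 1 of the 9 for each compound, PPM1D in both cases, beside 6.63% of all genes for SB590885 and 5.45% for PD325901. PPM1D differed from DMSO with SB590885 by 0.30 and 0.16 in the pairs without the mark and by -0.12 and -0.025 in the pairs with it (interaction adjusted p = 0.607, limma). TP53INP1 differed by 0.93 without the mark and 0.83 with it under SB590885, and by 0.95 and 0.70 under PD325901. With SB590885, DDB2 differed from DMSO by 0.61 without the mark and by 0.33 with it, XPC by 0.35 and 0.18, and RRM2B by 0.31 and 0.037. The values of marked arrays were also less spread, with an SD over probe sets of 1.39 to 1.45, against 1.52 to 1.55 on unmarked arrays. Their 3'-minus-5' signal of ACTB was 1.41 to 1.57 (log2), against 1.65 to 1.85 on unmarked arrays. The part of either in these differences was not tested.

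Beyond the 9 genes, 65 other measured p53 targets were followed in 4 lists. With SB590885 against DMSO, 4 rose and none fell in limma, beside 1.59% and 1.69% of all genes. Of the 65, 12 had an unadjusted p under 0.05, and the median difference was 0.030. With PD325901 none passed, 12 had an unadjusted p under 0.05, and the median was -0.026. Over all genes 13.5% had an unadjusted p under 0.05 with SB590885 and 6.8% with PD325901. With the block, 12 were higher and 11 lower with SB590885, beside 9.09% and 9.84% of all genes. With PD325901 the block called 3 higher and 10 lower, beside 1.96% and 6.18%. The 4 that rose with SB590885 were CCNG2, SESN2, SESN1 and ATF3. CCNG2, a cyclin linked to cell cycle arrest, read 9.36, 9.04, 8.40 and 8.29 with SB590885 and 7.35, 7.69, 7.32 and 7.59 with DMSO, and differed by 1.29 ± 0.24 (limma adjusted p = 0.014). SESN2, a sestrin that restrains mTORC1, read 9.08, 8.92, 8.88 and 8.56 with SB590885 and 7.83, 7.97, 7.88 and 7.69 with DMSO, and differed by 1.02 ± 0.11 (limma adjusted p = 0.0013). SESN1, another sestrin, rose by 0.34 (limma adjusted p = 0.0213), and ATF3, a stress-induced transcription factor, by 1.51 (limma adjusted p = 0.0446). The SB590885 and DMSO arrays of these 4 genes did not overlap, beside 4.45% of all genes with non-overlapping higher groups. For ATF3 the lowest SB590885 array read 7.8145 and the highest DMSO array 7.8133. ATF3 and SESN2 are also known targets of the amino acid response, and CCNG2 of FOXO factors.

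With PD325901, CCNG2 and SESN2 differed from DMSO by 0.22 and -0.021, and both were higher with SB590885 than with PD325901, by 1.07 and 1.04 (limma adjusted p = 0.0337 and 0.000744). Between the compounds 2 of the 65 were higher with SB590885 and 1 was lower in limma, beside 1.97% and 0.855% of all genes. With the block these counts were 17 and 4, beside 12.4% and 5.73%. The 1 that was lower from group means was ASTN2, at -0.26 (limma adjusted p = 0.0399).

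CDKN1A, which encodes the cell cycle inhibitor p21 and is the best known p53 target, read 9.33, 9.40, 8.75 and 8.76 with SB590885, 9.31, 9.24, 9.17 and 9.32 with PD325901, and 8.64, 8.76, 8.68 and 8.74 with DMSO. All PD325901 arrays lay above all DMSO arrays, as in 1.4% of all genes, while the SB590885 arrays with the R mark lay within the DMSO range. The differences from DMSO were 0.35 ± 0.14 with SB590885 and 0.55 ± 0.14 with PD325901 (limma adjusted p = 0.236 and 0.14, and 0.028 and 0.00471 with the block). MDM4, the partner of MDM2 that inhibits p53, differed from DMSO by 0.41 with SB590885 (limma adjusted p = 0.189, and 0.000167 with the block) and by 0.084 with PD325901.

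Of 20 measured p53 regulators, with SB590885 against DMSO, CHEK2 fell and KAT5 rose. CHEK2, a DNA damage checkpoint kinase, read 9.12, 9.25, 9.31 and 9.18 with SB590885, 10.01, 9.97, 9.64 and 9.72 with PD325901, and 9.83, 9.78, 9.59 and 9.81 with DMSO. CHEK2 was lower with SB590885 by 0.54 against DMSO and by 0.62 against PD325901 on the log2 scale (limma adjusted p = 0.00807 and 0.00323). Of all genes, 1.69% and 0.855% were called lower in these comparisons. KAT5, an acetyltransferase that acts on p53, rose by 0.26 and 0.25 in the same comparisons (limma adjusted p = 0.0277 and 0.0379). HIPK2, a kinase that phosphorylates p53, was lower with SB590885 than with PD325901 by a log2 difference of -0.41 (limma adjusted p = 0.0228).

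Among 11 measured genes that p53 lowers through p21 and the DREAM complex, 1 was called with SB590885 against DMSO. This was CDC25C, a phosphatase that starts mitosis, which rose by 0.44 (limma adjusted p = 0.00989). The median of that list was -0.059 with SB590885 and -0.087 with PD325901. Of 9 measured PPM1 phosphatases and PPM1D substrates, CHEK2 and PPM1G fell with SB590885, PPM1G by 0.29 (limma adjusted p = 0.0337), and H2AX, a histone that PPM1D dephosphorylates, was higher with SB590885 than with PD325901 by 0.50 (limma adjusted p = 0.0187). Of 10 measured TP53INP1 relatives and autophagy genes, 1 was called against DMSO, TP53INP2, the paralog of TP53INP1, which rose with SB590885 by 0.30 (limma adjusted p = 0.0136). Of 5 measured partners of FDXR none was called in limma against DMSO, with 1 and 0 at an unadjusted p under 0.05. In all 12 lists, 146 genes were measured. Of these, 8 rose and 2 fell with SB590885, beside 1.59% and 1.69% of all genes, and none passed with PD325901. At an unadjusted p under 0.05 there were 33 with SB590885, beside 13.5% of all genes, and 18 with PD325901, beside 6.8%. With the block, 28 of the 146 were higher and 24 lower with SB590885 against DMSO, beside 9.09% and 9.84% of all genes. For PD325901 against DMSO 5 were higher and 17 lower, beside 1.96% and 6.18%. For SB590885 against PD325901 40 were higher and 12 lower, beside 12.4% and 5.73%.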

How the data were processed

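RNA of INA-6 cells was hybridised to 12 HG-U133 Plus 2.0 arrays. The authors deposited log2 expression values per probe set, made with RMA in R 3.0.1, per the submitters' processing notes. No source states whether all arrays were normalised together. Minimum values were 5.85 to 6.01 per array, and whether this compresses differences of dim probe sets was not tested; the number of arrays limits the precision.

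Of 54675 probe sets, 62 controls were left out. The platform annotation gave 1 symbol to 41091, several to 1801 and none to 11721, and those with 1 were named. For each of 19775 genes, the probe set of highest mean over the arrays stood for the gene. The comparisons used limma 3.58.1, run under R 4.3.3 (group means over 12 arrays, empirical Bayes, Benjamini-Hochberg over all genes, or over all 54613 probe sets for single probe sets), at an adjusted p under 0.05. The fit was tested on simulated data.

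Same-numbered arrays deviated together from their group means: correlations over genes were 0.544 to 0.913 for the same number, 0.123 to 0.646 for another number with the same R mark and -0.718 to -0.443 across marks, and 12 of 12 arrays correlated best with their own number. The numbers were therefore taken as pairs from the data, since the labels name no shared batch, and each p-value rests on the variation among arrays. Between SB590885 and DMSO alone the pairing was less clear for number 3. DMSO 3 correlated at 0.557 with SB590885 3 and at 0.564 with SB590885 4, and SB590885 3 at 0.572 with DMSO 4. For numbers 1, 2 and 4 the same-number correlation between these groups was the highest. No arrays shared identical values. Alternatives were the replicate block, the R mark, subsets of arrays, normalisation, choice of probe set, a filter on dim genes and an intensity trend.

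The genes named are all members, the called genes of 12 lists (159 genes, 146 measured, at most 4 a list and comparison), CDKN1A, MDM4 and the 5 genes most like TP53INP1 and MDM2. The members and lists were chosen with earlier results of these data known. Promoter windows came from RefSeq, GRCh38.p14. FDXR was not analysed here.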

Additional observations from a re-analysis of the deposited data

Results flagged for a closer look

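Among the 96 groups of 4 arrays of the 32 probe sets, 4 held an array far from the other 3 by Dixon's criterion, and chance flags about 1 in 20 groups. The TP53INP1 probe set 244721_at read 7.79 on PD325901 replicate 2, where the remaining PD325901 arrays read 8.04 to 8.08. The ZMAT3 probe set 228315_at read 9.13 on PD325901 replicate 1, against 8.44 to 8.55. Without that array the ZMAT3 difference from DMSO under PD325901 was 0.23, against 0.39 with it. The FAS probe set 216252_x_at read 6.28 on SB590885 replicate 1, against 6.48 to 6.51, and the MDM2 probe set 238733_at read 7.30 on DMSO replicate 1, against 7.25 on the others.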

How the results depend on the processing

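Counts below are of called genes among the 9, then of called probe sets among the 32, by limma at an adjusted p under 0.05. For SB590885 against DMSO they were 1 and 1, and became 5 and 10 with the replicate block, 4 and 7 with the R mark as a term, 5 and 7 on arrays without the mark, 2 probe sets on arrays with it, 2 and 3 with dim genes left out, and 3 and 3 with quantile normalisation. For PD325901 against DMSO they were 1 and 1, and became 3 and 5 with the replicate block, 3 and 3 with the R mark, 2 and 2 on marked arrays, and 0 and 0 on unmarked arrays, in a fit of the 2 groups alone and with median centring. For SB590885 against PD325901 they were 1 and 1, and became 4 and 5 with the replicate block, 3 and 4 with the R mark, 3 and 3 on unmarked and on marked arrays and with quantile normalisation, 2 and 2 with dim genes left out, and 0 and 0 in the fit of 2 groups and with centring. Without the arrays of number 2, among them both arrays with high interferon genes, the counts were 0 and 0 in all 3 comparisons, and with the block as well, a setting chosen after seeing the data, they were 4 and 8, 3 and 5, and 3 and 4. The block lost none of the calls made from group means. Leaving out 1 array at a time gave 1 to 2, 0 to 1 and 0 to 2, the same for genes and for probe sets, while the interaction with the R mark stayed at 0 of 9 under every alternative run. The cause of these changes was not tested.

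The share of all genes called moved with the same settings, so the counts above are to be read against it. For SB590885 against DMSO it was 3.28%, and became 18.9% with the replicate block, 16.8% with the R mark, 13.3% on unmarked and 5.39% on marked arrays, 5.21% with dim genes left out, 8.25% with quantile normalisation, 0.394% without number 2 and 13.7% with the block as well. For PD325901 against DMSO it was 0.592%, and became 8.14%, 6.52%, 0.941%, 5.46%, 0.933%, 1.77%, 0.319% and 6.55% in the same order, 0.399% in the fit of 2 groups and 0.47% with centring. For SB590885 against PD325901 it was 2.82%, and became 18.1%, 16.1%, 11.9%, 8.95%, 4.57%, 7.87%, 0.91% and 13.9%, 1.14% in the fit of 2 groups and 1.55% with centring.

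Differences that changed sign were all close to 0 and uncalled. On unmarked arrays PD325901 against DMSO gave 0.039 for MDM2, 0.046 for XPC, 0.042 for DDB2, 0.01 for RRM2B and 0.085 for PPM1D, and SB590885 against PD325901 gave -0.026 for TP53INP1. On marked arrays PPM1D gave -0.072 with SB590885 and FAS 0.019 with PD325901, both against DMSO. With quantile normalisation PD325901 against DMSO gave 0.024 for MDM2, 0.0093 for XPC, 0.052 for DDB2 and 0.040 for PPM1D, and the mean of probe sets gave 0.029 for PPM1D. Between the compounds TP53INP1 gave -0.016 without number 2, with or without the block, ZMAT3 gave 0.069 by the probe set of highest variance and FAS 0.0016 by its plain probe set. Leaving out 1 array gave, with PD325901, -0.14 to 0.054 for MDM2, -0.19 to 0.082 for FAS, -0.12 to 0.0021 for XPC, -0.087 to 0.059 for DDB2, -0.097 to 0.021 for RRM2B and -0.14 to 0.099 for PPM1D. It gave -0.046 to 0.21 for PPM1D with SB590885 against DMSO, and between the compounds -0.018 to 0.16 for TP53INP1, -0.17 to 0.059 for ZMAT3 and -0.020 to 0.25 for PPM1D. TP53INP1 against DMSO and TNFRSF10B between the compounds kept their sign under every alternative run. Signal over background limits FAS and 20 of the 32 probe sets, whose means do not exceed 7.75. That is the highest mean of the 17 genes restricted to other tissues, and the median of those genes was 6.60.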
